A study of Homo sapiens with 6 samples.

Results

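The 31 genes described here are known targets of the hypoxia-inducible factors (HIFs) that act outside glycolysis, chosen by name among the 62252 genes to which the transcripts of the deposited tables were matched. Each gene's value is the sum over its transcripts in GENCODE release 44. Of the 31 genes, 30 had more than 10 counts over all libraries and were tested. The remaining gene, BHLHE41, was held at 0, 0 and 1 counts in DMSO and 0, 1 and 3 in Chelator. The data came from K562 cells, a human erythroid leukemia line grown in suspension, in which polyadenylated RNA was sequenced to ask how iron chelation alters the transcriptome. The Chelator group (3 libraries) was treated overnight with 10 µM 21H7, a cell-permeable iron chelator, and the DMSO group (3 libraries) with an equal volume of the solvent. Both groups were the same line in the same complete medium, with no genetic change named in the labels, and the series design calls the libraries of a group biological replicates.

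HIFs are transcription factors made of an alpha and a beta subunit. In cells with oxygen and iron, prolyl hydroxylases that carry iron in their active site modify the alpha subunit, and the VHL complex then marks it for degradation. Iron chelators are therefore long known to stabilize HIF alpha without hypoxia, and HIF binds a short DNA core, the hypoxia response element, near its targets. Outside glycolysis those targets control pH, secreted signals, lipid and glycogen stores, protein folding and other regulators.

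The smallest library, DMSO replicate 3, held 78615500 estimated counts and the largest, Chelator replicate 2, held 101094957. In each group 1 library stood apart by chi-square per gene on estimated counts. DMSO replicate 2 differed from replicates 1 and 3 by 58.1 and 40.5, against 8.04 between those. Chelator replicate 1 differed from replicates 2 and 3 by 27.5 and 25.9, against 6.22. Libraries of different groups differed by 199 or more. The erythroid identity of the cells was checked with fixed markers: all 9 erythroid genes were detected, and their summed level was 12656 to 13936 TPM (a level scaled for transcript length and library size) in DMSO and 19521 to 20649 in Chelator. The defining markers PF4 (platelet factor) and MS4A1 (B cells) had 0 counts in every library. The summed TPM of megakaryocytic markers was 4.42 to 5.10 in DMSO and 7.58 to 9.21 in Chelator, and that of monocytic and granulocytic markers was 11.4 to 12.2 and 19.1 to 20.9. Lymphoid markers summed to 1.52 to 2.05 and 2.92 to 3.51 TPM, and fibroblast markers to 2.71 to 3.38 and 3.44 to 3.90 TPM. Among these markers ITGB3, MPO, CD3E and COL1A1 were called higher in Chelator, as was the erythroid marker TFRC. The erythroid regulators KLF1 (log2 fold change -0.72, adjusted p = 4.54e-23) and TAL1 (-0.28, adjusted p = 0.000384) and the fibroblast marker COL1A2 (-0.48, adjusted p = 0.0026) were lower, while the erythroid sum was mostly globin and TFRC. The part of these markers in the results below was not tested. The fragment length read from the length correction of the files was between 252 and 264 bases in DMSO and between 200 and 218 in Chelator, with no overlap between groups.

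The promoter windows of the members were examined first. The rule that chose the genes did not read these sequences. It took the genes as known HIF targets, though, so a core near them is no independent finding. RefSeq windows on GRCh38.p14 (250 bases before to 50 after the start of transcription) were matched by symbol for 26 of the 31 genes, and none was matched for STC1, ZNF395, HILPDA, ANKZF1 and FUT11. Both cores of the hypoxia response element, ACGTG and GCGTG, were searched on both strands, and a CACGTG counts as a match of ACGTG on each strand. Shown are the 250 bases before the start for the called genes with the largest changes that the table holds, with the matches in capitals, 5′ to 3′ on the gene's strand.
CA9 (chr9:35673678-35673927, plus strand): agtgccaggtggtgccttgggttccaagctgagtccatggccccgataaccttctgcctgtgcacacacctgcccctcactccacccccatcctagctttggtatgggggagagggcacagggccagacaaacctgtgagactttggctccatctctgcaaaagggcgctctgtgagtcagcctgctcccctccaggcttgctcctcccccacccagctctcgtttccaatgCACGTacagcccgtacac
PPFIA4 (chr1:203026241-203026490, plus strand): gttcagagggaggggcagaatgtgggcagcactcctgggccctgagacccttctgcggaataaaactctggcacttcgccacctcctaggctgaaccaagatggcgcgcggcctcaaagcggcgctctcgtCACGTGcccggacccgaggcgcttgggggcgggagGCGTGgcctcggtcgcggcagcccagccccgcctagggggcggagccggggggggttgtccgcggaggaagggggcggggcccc
TMEM158 (chr3:45226288-45226537, minus strand): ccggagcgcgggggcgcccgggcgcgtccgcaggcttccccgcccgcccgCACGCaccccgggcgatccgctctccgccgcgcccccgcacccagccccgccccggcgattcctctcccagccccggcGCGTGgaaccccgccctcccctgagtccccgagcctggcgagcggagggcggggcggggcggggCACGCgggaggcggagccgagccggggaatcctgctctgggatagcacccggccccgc
BHLHE40 (chr3:4979187-4979436, plus strand): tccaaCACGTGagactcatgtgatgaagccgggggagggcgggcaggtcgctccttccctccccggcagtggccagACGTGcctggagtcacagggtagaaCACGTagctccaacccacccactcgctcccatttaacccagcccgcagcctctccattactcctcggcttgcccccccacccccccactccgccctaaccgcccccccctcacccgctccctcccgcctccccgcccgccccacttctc
CA12 (chr15:63381847-63382096, minus strand): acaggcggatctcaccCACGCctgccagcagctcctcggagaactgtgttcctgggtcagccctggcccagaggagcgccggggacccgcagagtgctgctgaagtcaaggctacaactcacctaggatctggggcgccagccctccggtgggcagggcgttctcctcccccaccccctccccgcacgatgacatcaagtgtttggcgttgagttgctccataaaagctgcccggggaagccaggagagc

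CA9, which went from 0 counts to expression, held 1 match, an ACGTG on the opposite strand whose first base lay 18 bases before the start. PPFIA4 held ACGTG on both strands at 1 place, 119 bases before the start, and a GCGTG 84 bases before it. BHLHE40 held 4 matches of ACGTG, 2 of them at 1 place at the far end of the window. TMEM158 held 3 matches of GCGTG and none of ACGTG, and CA12 held a GCGTG 234 bases before the start and another 40 bases after it, beyond the stretch shown. KLHL24 held 1 match of GCGTG and ANKRD37 held 3 matches of ACGTG.

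Related or overlapping members are shown for comparison. BHLHE41 is the close relative of BHLHE40, and ANG and RNASE4 are overlapping genes that have windows in common in the table, of which the one nearest to the start of RNASE4 is shown.
BHLHE41 (chr12:26125038-26125287, minus strand): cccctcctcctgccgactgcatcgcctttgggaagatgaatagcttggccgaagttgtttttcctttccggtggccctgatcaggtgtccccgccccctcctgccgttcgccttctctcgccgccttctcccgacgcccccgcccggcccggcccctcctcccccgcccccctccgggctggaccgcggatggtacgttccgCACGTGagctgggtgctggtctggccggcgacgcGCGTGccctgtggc
RNASE4 and ANG (chr14:20684310-20684559, plus strand): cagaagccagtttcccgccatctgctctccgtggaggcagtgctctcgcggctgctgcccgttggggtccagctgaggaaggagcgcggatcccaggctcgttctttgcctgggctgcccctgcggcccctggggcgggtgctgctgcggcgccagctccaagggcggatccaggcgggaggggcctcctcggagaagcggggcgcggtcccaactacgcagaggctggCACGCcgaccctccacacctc

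BHLHE41 held ACGTG on both strands 48 bases before the start and a GCGTG at 14 bases, although its RNA was almost undetected. The shared window of ANG and RNASE4 held a GCGTG 21 bases before the start and another 3 bases after it, and the window nearest to the start of ANG held an ACGTG 32 bases after its start. Over the 26 genes, counting for each the window nearest to its annotated start, 15 held ACGTG (57.7%), 16 held GCGTG (61.5%) and 23 held either (88.5%). Of all 35116 windows in the table, 21.4% held ACGTG, 36.5% held GCGTG and 48.4% held either. The 7 called genes with a window all held a core, and so did 16 of the 19 members that were not called. No match was found for SLC6A8, TMEM45A and RORA. The only window of RORA starts far inside the gene as GENCODE annotates it. The nearest windows of PLIN2, CXCR4, ANKRD37 and ERO1A also lie away from the annotated start. The sequence at the annotated starts of RORA and these genes was therefore not examined. A match here is a string of letters and does not show that HIF was bound.

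**Figure D1:**
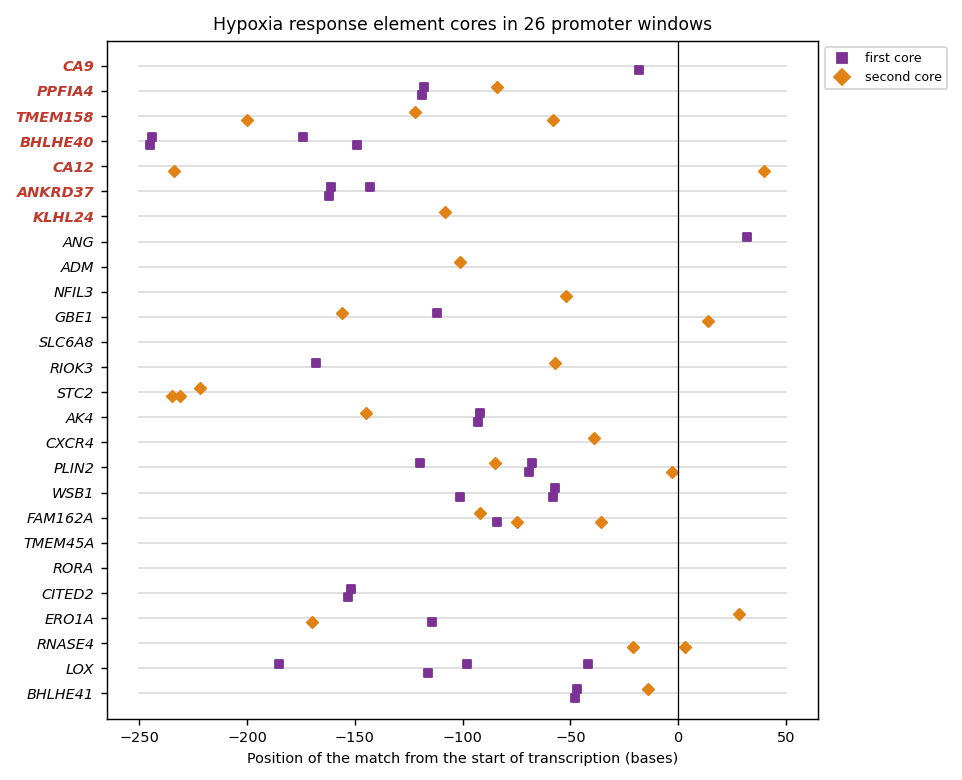
Position of each match to a hypoxia response element core (x axis, bases from the start of transcription) in the promoter windows of 26 members, ordered by log2 fold change, with called genes in red and BHLHE41, not tested, at the bottom. Squares are ACGTG and diamonds GCGTG, above the line on the gene's strand and below it on the opposite strand; 23 of the 26 windows hold at least 1 match, among called and uncalled genes alike.

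After iron chelation 18 of the 30 tested members were higher, 10 of them by less than 2-fold, 2 were lower and 10 did not pass the test. In all, 8 members were called higher in Chelator and 0 lower, in DESeq2's Wald test, where a call needs a change of over 1 on the log2 scale in either direction besides an adjusted p under 0.05. Over all 24542 genes with an adjusted p, 8.18% were called higher and 2.60% lower. With no fold threshold, the 18 higher and 2 lower members at an adjusted p under 0.05 compare with 19.5% and 18.3% of all genes. edgeR's quasi-likelihood test also called 0 members lower, and at an unadjusted p under 0.05 each tool gave 2 lower members, neither past the fold threshold. The median log2 fold change of the 30 members was 0.40 and that of all genes with an adjusted p was 0.02. CA9 and ANG passed the filter on counts only through the Chelator libraries, so these numbers describe the list and are no test of it. In bulk libraries a change in the share of cells that express a gene cannot be told apart from a change in RNA per cell. The normalized counts of the 3 Chelator libraries lay above all 3 DMSO libraries in 18 members and below them in 2, as in 24.8% and 22.5% of all genes tested. Normalized counts are estimated counts divided by the library's size factor and by the gene's relative transcript length in that library.

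**Figure D2:**
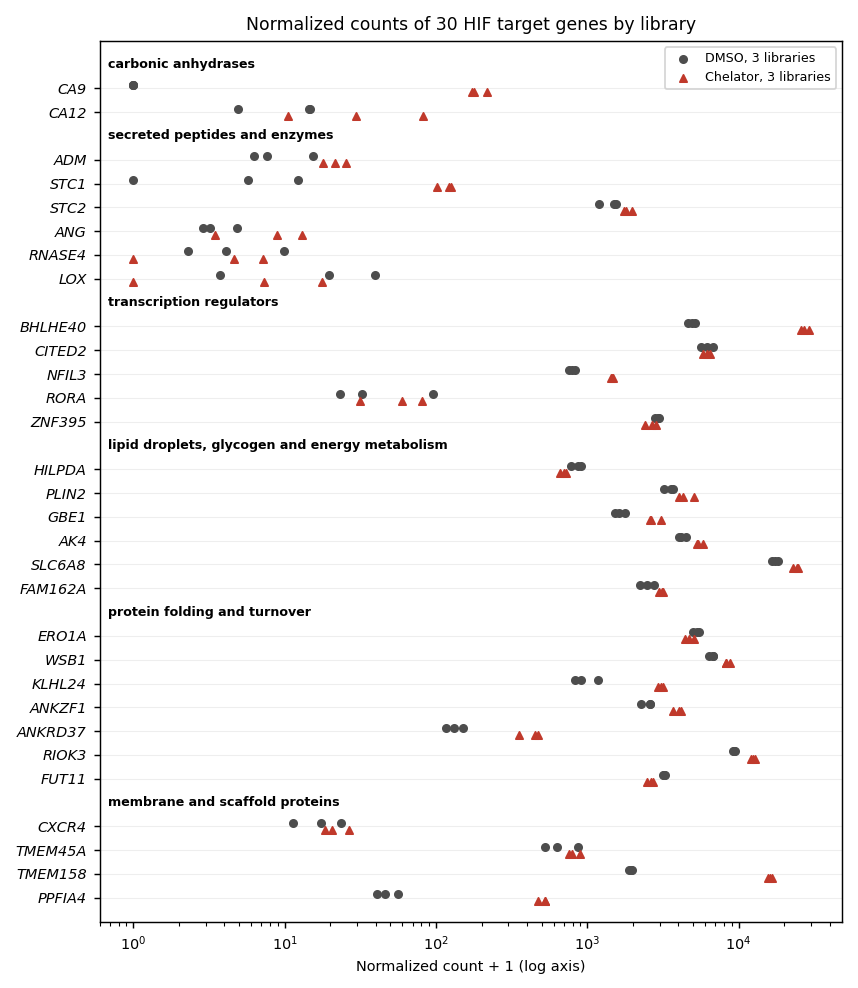
Normalized counts plus 1 (x axis, log scale) of the 30 tested members, grouped by role, with a circle for each of the 3 DMSO libraries and a triangle for each of the 3 Chelator libraries. The circles and triangles of CA9, STC1, BHLHE40, KLHL24, ANKRD37, TMEM158 and PPFIA4 are widely separated, while those of CA12, LOX, ANG, RNASE4, RORA and CXCR4 mix.

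**Figure D3:**
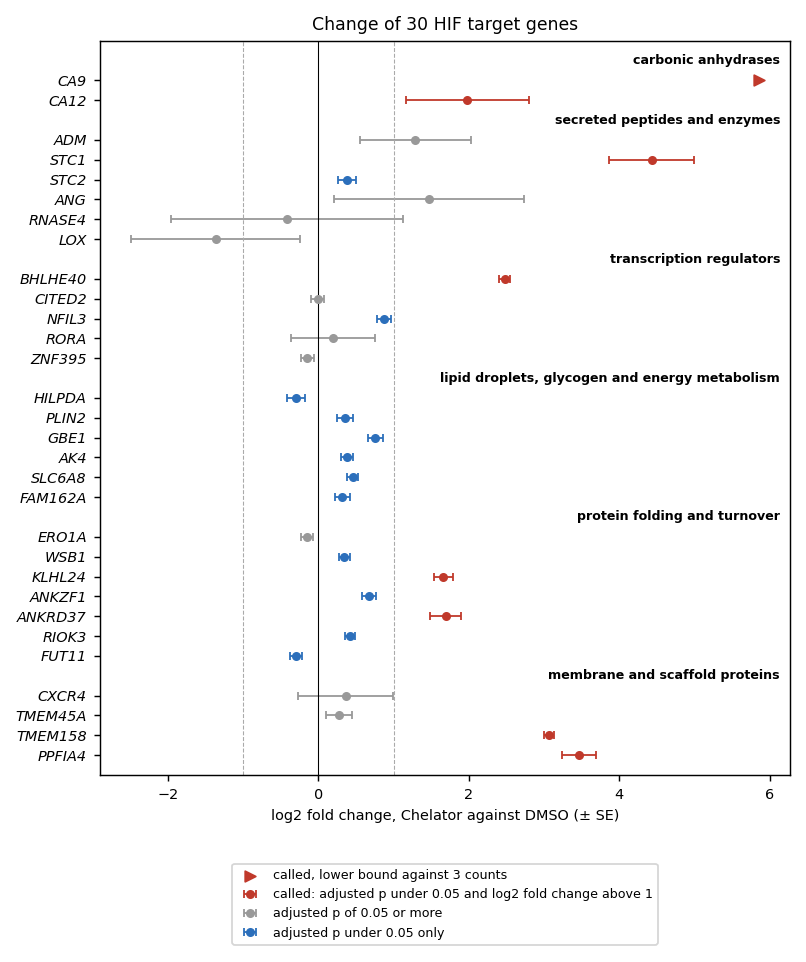
Log2 fold change of Chelator against DMSO for the 30 members by role, with bars of 1 SE over 3 libraries per group; dashed lines mark the fold threshold, and CA9 is drawn as a lower bound against a floor of 3 counts. Called members (red) lie between 1.66 and the bound of CA9 at 5.86, and the 12 genes in blue passed on adjusted p alone.

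Levels set the members apart before any treatment. On the TPM scale, 18 members stood at 5 TPM or more in every library and 9 under 1 TPM in every library. In DMSO the highest was SLC6A8, a creatine transporter, at 92.3 ± 5.35 TPM (SD, n = 3), followed by WSB1 at 63.2 ± 7.21 and RIOK3 at 52.8 ± 4.72, and the ranges of WSB1 and RIOK3 overlapped. After chelation BHLHE40 went from rank 9 to rank 1 at 133 ± 3.78 TPM, and its range overlapped that of SLC6A8 at 129 ± 2.37. TMEM158 went from rank 13 to rank 3, at 106 ± 3.53 TPM. STC1, ADM, CXCR4, CA12, ANG, LOX, RNASE4, RORA and BHLHE41 were below 1 TPM throughout. The changes of these 9 genes therefore rest on few reads, whatever their fold.

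The carbonic anhydrases CA9 and CA12 are cell-surface enzymes that hydrate carbon dioxide and so export acid. CA9 (chr9:35673928-35681159, plus strand, GENCODE on GRCh38) had 0 counts in each of the 3 DMSO libraries and 226, 208 and 177 counts in Chelator. Its normalized counts in Chelator were 216, 173 and 177, which was at least 58.1-fold higher than a floor of 3 counts in each DMSO library (fitted log2 fold change 9.89, SE 1.21, adjusted p = 6.62e-15). Since CA9 met the count filter only through Chelator, this p-value is a description. The groups were completely separated, yet the level reached was only 1.66 ± 0.16 TPM. All CA9 counts were assigned to the full-length coding transcript CA9-201. CA9 shares 30.2% of its 31-base words with ARHGEF39, an overlapping gene whose own log2 fold change was -0.06 (SE 0.12, adjusted p = 0.757).

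CA12 (chr15:63321378-63381846, minus strand) had 8, 9 and 7 counts in DMSO and 43, 24 and 31 in Chelator. After normalization the values were 3.90, 13.5 and 13.8 in DMSO against 81.5, 9.55 and 28.6 in Chelator, and the groups overlapped. In Chelator replicate 1, the highest, 8.84 of the counts were assigned to CA12-204, a transcript of 561 bases that the annotation marks as retaining an intron, and so the gene's average length was lower there. The coding transcript CA12-201 had 8, 8 and 6 counts in DMSO and 34.2, 24 and 29.1 in Chelator, which do not overlap. The log2 fold change was 1.98 (SE 0.82) with an adjusted p of 0.0414, close to the threshold. The call was lost in 8 of 16 alternatives, among them edgeR (adjusted p = 0.0807) and the fits without Chelator replicate 1 (log2 fold change 0.93, adjusted p = 0.505), Chelator replicate 3 or any 1 of the DMSO libraries.

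Of the 6 secreted peptides and enzymes, 1 was called higher and 1 more passed on adjusted p. STC1, stanniocalcin 1, a secreted regulator of calcium and phosphate handling (chr8:23841929-23854806), had normalized counts of 0, 11.3 and 4.70 in DMSO and 121, 124 and 101 in Chelator. Its lowest Chelator library was several times its highest DMSO library, and the log2 fold change was 4.43 (SE 0.56, adjusted p = 7.20e-14) at a level of only 0.46 ± 0.05 TPM. The size rests on few DMSO counts, at 3.82 without DMSO replicate 1 and 5.70 without DMSO replicate 2. Its paralog STC2 was far more abundant, at 10.8 ± 0.42 TPM in Chelator, and changed less (log2 fold change 0.38, SE 0.12, adjusted p = 0.00502), and it did not pass after centring on the mean change of all genes (adjusted p = 0.0561).

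ADM, adrenomedullin, a peptide that widens blood vessels, had 8, 7 and 5 counts in DMSO and 29, 23 and 23 in Chelator. Its normalized counts did not overlap either, but the log2 fold change of 1.29 (SE 0.74) had an adjusted p of 0.17. Without the length offset it was called (log2 fold change 1.69, adjusted p = 0.0304). All 8 counts of DMSO replicate 1 were assigned to ADM-203, a transcript of 867 bases, and those of the other libraries to ADM-201 of 1492 bases. LOX, lysyl oxidase, which cross-links collagen, had 4, 18 and 18 counts in DMSO and 0, 10 and 15 in Chelator (log2 fold change -1.37, SE 1.13, adjusted p = 0.375). ANG (angiogenin) and RNASE4, a pair of secreted ribonucleases that share their first exons, had at most 14 counts in any library. Since ANG shares 16.6% of its 31-base words with RNASE4, their counts were also summed, which gave a log2 fold change of 0.72 (SE 0.90, adjusted p = 0.587) with overlapping groups.

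The regulators of transcription gave the most abundant called member. BHLHE40 (chr3:4979437-4985323), a repressor that links hypoxia to the circadian clock and to differentiation, had normalized counts of 5155, 4638 and 4948 in DMSO and 29014, 25899 and 27096 in Chelator. The log2 fold change of 2.48 (SE 0.08, adjusted p = 2.02e-232) is 5.56-fold, and the groups were far apart. BHLHE40 shares 12.1% of its 31-base words with other genes, almost all with its antisense gene BHLHE40-AS1, which held 374 counts over the 6 libraries and had a log2 fold change of 1.98 (SE 0.40, adjusted p = 5.12e-06) in the same direction. NFIL3, a leucine-zipper repressor, rose by less than 2-fold, from 829, 762 and 792 to 1466, 1444 and 1451 normalized counts (log2 fold change 0.87, SE 0.10, adjusted p = 2.49e-17).

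The other regulators did not pass. CITED2, which competes with HIF for its coactivators, stood at 6200 ± 585 normalized counts in DMSO and 6154 ± 351 in Chelator (log2 fold change -0.01, SE 0.09, adjusted p = 0.947), and its sign turned under TMM scaling. ZNF395, a zinc finger protein, gave -0.15 (SE 0.09, adjusted p = 0.205), and -0.35 (adjusted p = 8.56e-05) after correction for GC content and length. RORA, a nuclear receptor of the circadian clock, had between 22.4 and 94.0 normalized counts over all libraries with overlapping groups (log2 fold change 0.20, SE 0.56, adjusted p = 0.833).

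All 6 genes of lipid droplets, glycogen and energy metabolism had an adjusted p under 0.05, and none changed by 2-fold. GBE1, the glycogen branching enzyme, changed most, from 1615, 1522 and 1782 normalized counts to 3091, 2626 and 2594 (log2 fold change 0.76, SE 0.10, adjusted p = 6.59e-12). SLC6A8 rose by 0.46 (SE 0.07, adjusted p = 5.87e-10), AK4, a mitochondrial adenylate kinase, by 0.38 (SE 0.08), PLIN2, which coats lipid droplets, by 0.35 (SE 0.10) and FAM162A, a mitochondrial protein, by 0.32 (SE 0.10) on the log2 scale. In all of these the 3 Chelator libraries lay above the 3 DMSO libraries. When the fit was centred on the mean change of all genes, PLIN2 (adjusted p = 0.0627) and FAM162A (adjusted p = 0.103) no longer passed. AK4 shares 17.1% of its 31-base words with other genes, mostly AK4 pseudogenes, and SLC6A8 shares 17.7%, mostly with SLC6A10P, and the leading partner of each had a log2 fold change above 0 (0.93 and 0.72).

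HILPDA, which blocks lipid breakdown on the same droplets, went the other way. Its normalized counts were 911, 782 and 861 in DMSO and 659, 717 and 700.2 in Chelator, which do not overlap, and it fell by 0.30 on the log2 scale (SE 0.12, adjusted p = 0.0338). Leaving aside the test against a log2 fold change of 1, the adjusted p stayed under 0.05 in only 5 of 15 alternatives, with the same direction in all 15. HILPDA shares 17% of its 31-base words with other genes, among them HILPDA-AS1. PLIN2 and HILPDA thus had log2 fold changes of opposite sign in the same libraries.

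Among the 7 genes of protein folding and turnover, 2 were called higher. KLHL24 (chr3:183635610-183684519), an adaptor of a ubiquitin ligase, had 906, 1169 and 827 normalized counts in DMSO and 2922, 3082 and 3168 in Chelator (log2 fold change 1.66, SE 0.12, adjusted p = 2.10e-39). ANKRD37 (chr4:185396021-185400628), a small ankyrin-repeat protein, had 149, 115 and 130 in DMSO and 351, 473 and 449 in Chelator (log2 fold change 1.69, SE 0.20, adjusted p = 1.15e-15). Neither gene's groups overlapped. ANKRD37 shares 38.2% of its 31-base words with the overlapping gene UFSP2, which was more abundant and had a log2 fold change of 0.25 (SE 0.10, adjusted p = 0.0328). Counting protein-coding transcripts alone, ANKRD37 gave 2.22.

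ANKZF1, which releases stalled chains from ribosomes, gave a log2 fold change of 0.67 (SE 0.09, adjusted p = 1.54e-12). The atypical kinase RIOK3 gave 0.42 (SE 0.06) and WSB1, a substrate receptor of a ubiquitin ligase, gave 0.35 (SE 0.07). These 3 genes rose with no overlap between groups. FUT11, a fucosyltransferase of the secretory pathway, fell by 0.30 on the log2 scale (SE 0.08, adjusted p = 0.000501), from 3174, 3202 and 3280 to 2709, 2494 and 2638 normalized counts, and its adjusted p was under 0.05 in the 15 alternatives other than the test against a log2 fold change of 1, which it did not pass. FUT11 shares 15.6% of its 31-base words with other genes, most of them with ENSG00000279689, which held 2025 counts and had a log2 fold change of 1.24 (SE 0.19, adjusted p = 1.24e-09), opposite in sign. ERO1A, the oxidase that forms disulfide bonds in the endoplasmic reticulum, gave -0.15 (SE 0.08, adjusted p = 0.144) with overlapping groups. It passed without Chelator replicate 1 (-0.20, adjusted p = 0.0336), with no length offset (-0.30, adjusted p = 0.00122) and after centring (-0.25, adjusted p = 0.014), and its sign turned (0.01) when GC and length trends were removed.

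The membrane and scaffold proteins split into 2 large changes and 2 that did not pass. TMEM158 (chr3:45224466-45226287), a membrane protein first described in cells with active Ras, had 1942, 1883 and 1959 normalized counts in DMSO and 16066, 15676 and 16660 in Chelator. Its log2 fold change was 3.06 (SE 0.07), or 8.37-fold, with an adjusted p too small for DESeq2 to express. Replicates differed little beside this step, and the gene has 1 transcript in use. PPFIA4 (chr1:203026491-203078740), a liprin scaffold of cell junctions, had 54.9, 39.7 and 45.0 in DMSO and 473, 527 and 521 in Chelator (log2 fold change 3.47, SE 0.22, adjusted p = 3.64e-52), again without overlap. Its size depended on how transcript length was treated, at 4.13 with no length offset and 4.68 for protein-coding transcripts alone. In DMSO 70.0 ± 8.44% of its TPM was given to PPFIA4-213, a transcript of 558 bases marked as retaining an intron, from at most 5.85 counts in a library.

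CXCR4, the receptor of the chemokine CXCL12, was held at 16, 10 and 19 counts in DMSO and 19, 31 and 19 in Chelator (log2 fold change 0.36, SE 0.63, adjusted p = 0.714). TMEM45A, another membrane protein, had 521, 868 and 631 normalized counts in DMSO and 796, 896 and 753 in Chelator (log2 fold change 0.28, SE 0.17, adjusted p = 0.223). The transcript marked as retaining an intron, TMEM45A-207, held 88.9 ± 2.35% of the gene's TPM in DMSO and 72.1 ± 7.64% in Chelator, and the coding transcript TMEM45A-201 went from 23.1, 22.9 and 25.2 counts to 82.5, 92.9 and 62.2. Over protein-coding transcripts alone the log2 fold change was 1.70 (adjusted p = 5.66e-05), with GC and length correction it was 0.55 (adjusted p = 0.00239), and without DMSO replicate 2 it was 0.50 (adjusted p = 0.00363). The change of usage itself did not pass in TMEM45A (adjusted p = 0.847), and 35% of the gene's 31-base words are shared with other genes.

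Transcript choice was a readout that the gene totals do not hold. In all, 20 members had at least 2 transcripts with 10 counts or more in 3 libraries and were tested with edgeR's diffSpliceDGE, and 4 were called at an adjusted Simes p under 0.05 with a share changed by over 5 percentage points. Of the 11938 genes tested, 9.22% were called, and 4 of 20 is a small count to set beside that share. All 4 belong to the protein folding and turnover group. The fragment lengths of the groups did not overlap, and their part in the shares of short transcripts was not tested.

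In ANKZF1 (adjusted p = 7.37e-07) the main coding transcript ANKZF1-201 held 60.1, 59.6 and 64.2% of the gene's TPM in DMSO and 50.2, 43.3 and 41.4% in Chelator. The transcript that carried the test, ANKZF1-202, was at 0 counts throughout DMSO and at 134, 65.1 and 232 in Chelator, so that it met the count filter only through the group where it was high and had to differ. Transcripts marked as retaining an intron made up 27.6 ± 0.49% of ANKZF1 in DMSO and 41.7 ± 4.14% in Chelator, so the gene's rise in RNA came with a lower share of coding transcripts, 71.9 ± 0.85% against 58.3 ± 4.19%. In RIOK3 (adjusted p = 0.0453) a single such transcript differed. RIOK3-205, which retains an intron, held 2.67, 5.65 and 4.02% in DMSO and 11.3, 8.87 and 11.0% in Chelator, and the coding RIOK3-201 held 79.2 ± 4.27% against 67.6 ± 4.71%. Its retained-intron transcripts as a class overlapped between groups, at 20.8, 22.7 and 12.7% in DMSO and 22.6, 32.1 and 29.8% in Chelator.

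In WSB1 (adjusted p = 0.0103) the transcript with the smallest p was the long coding WSB1-201, at 4.55, 4.61 and 4.99% in DMSO and 2.08, 1.95 and 1.98% in Chelator. Larger shares moved between transcripts marked as retaining an intron, WSB1-204 from 17.4 ± 2.03 to 29.9 ± 5.20% and WSB1-217 from 33.6 ± 2.73 to 18.9 ± 4.15%, while their class as a whole stayed near 76.6 ± 0.71 and 74.5 ± 2.65%. In KLHL24 (adjusted p = 0.0135) the change was in KLHL24-214, a transcript of 530 bases with no defined coding sequence, at 0 counts in all DMSO libraries and 35, 51.2 and 42 in Chelator (7.05 ± 0.64% of the gene's TPM), and this transcript too met the filter only through Chelator. The usage p-values of ANKZF1 and KLHL24 are therefore a description. None of the 4 was called without Chelator replicate 2 or without Chelator replicate 3. In each of these fits 0 members were called in edgeR and 2 had an unadjusted p under 0.05 with such a share. For ANKZF1 and KLHL24 leaving out a Chelator library cannot show dependence on it. Their transcripts at 0 counts in DMSO then no longer had 10 counts in 3 libraries and left the test. KLHL24 was also not called without DMSO replicate 1 or without DMSO replicate 2. The calls of WSB1 and RIOK3 depended on single libraries. Without DMSO replicate 1 the calls were ANKZF1 and WSB1, and without Chelator replicate 1 they were WSB1 and SLC6A8. With a replicate block RIOK3 was no longer called. limma's diffSplice called 26.7% of all genes and 6 of the 20 members, a share near that of all genes: ANKZF1, RIOK3, WSB1, AK4, ANKRD37 and SLC6A8, but not KLHL24.

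**Figure D4:**
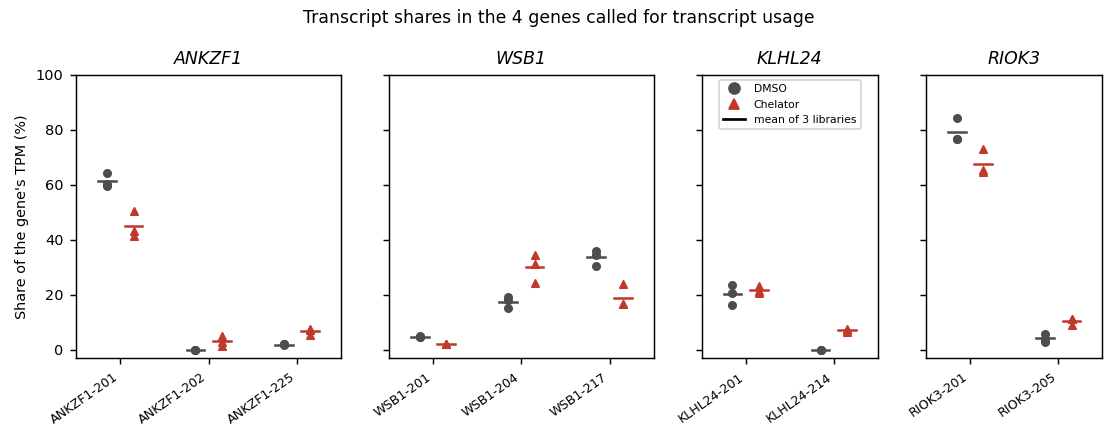
Share of the gene's TPM (y axis, percent) held by named transcripts in the 4 members called for transcript usage, with a circle for each DMSO library, a triangle for each Chelator library and a line at each mean of 3. ANKZF1-201 and RIOK3-201 sit lower in Chelator, and ANKZF1-202 and KLHL24-214 are at 0 in all 3 DMSO libraries.

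The members were set beside 60 other genes of the HIF pathway, from lists fixed with earlier results known. Of the 5 HIF subunits, 1 was called higher: EPAS1, which encodes HIF-2 alpha, at a log2 fold change of 3.08 (SE 0.13, adjusted p = 6.87e-121), while HIF1A stood at 0.00 (SE 0.10, adjusted p = 0.988). None of the 9 hydroxylases and VHL complex genes was called, and EGLN3, a prolyl hydroxylase that is itself a HIF target, came nearest (0.89, SE 0.11); 3 of the 9 were higher and 4 lower at an adjusted p under 0.05. Of the 21 glycolytic targets 6 were called higher (ALDOC, SLC16A3, LDHA, ENO2, PFKFB4 and PDK1), with a median log2 fold change over the list of 0.47. Their number was 3 when tested against a log2 fold change of 1, 4 after centring and 8 with edgeR or TMM scaling. Of the 25 further targets 12 were called higher, with a median of 1.1 over the 23 tested, and among those with the smallest adjusted p were DDIT4, TFRC, NDRG1, VEGFA and TF. None of the 60 genes was called lower in DESeq2 or edgeR, where 6 and 4 were lower at an unadjusted p under 0.05, and 5 were lower in DESeq2 at an adjusted p under 0.05. Beside these lists stood the 8 called of 30 tested members, and the differences between lists were not tested.

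**Figure D5:**
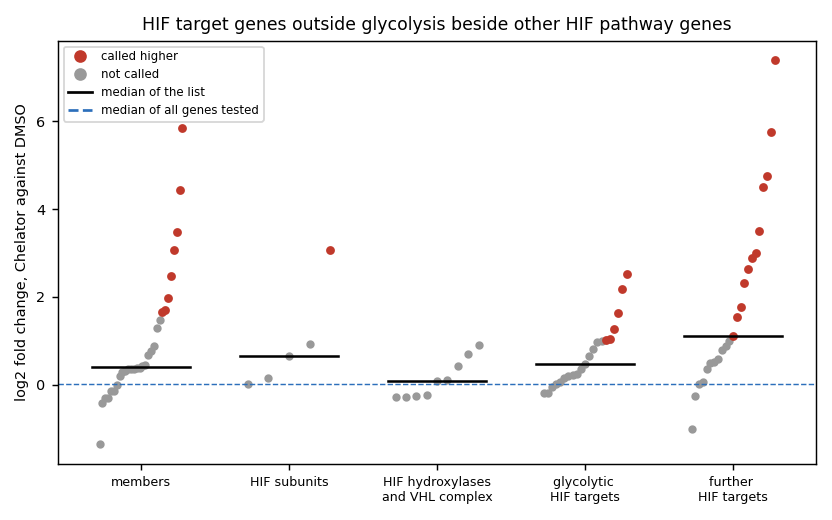
Log2 fold change of Chelator against DMSO (y axis) for the 30 tested members and the 4 lists of other HIF pathway genes, 1 point per gene in rising order, with called genes in red, list medians as black lines and the median of all genes tested (0.02) dashed. CA9 is drawn at its lower bound; the list medians run from 0.08 for the hydroxylases and VHL complex to 1.1 for the further targets, with the members at 0.40.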

How the data were processed

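The authors quantified paired-end polyA RNA-seq reads of 6 K562 libraries with salmon and deposited, per transcript, estimated counts and TPM values; the submitters' processing notes name hg38 and Salmon 1.10.2, and the annotation and strand setting are not given in the sources used here. Transcripts were matched to GENCODE release 44 and summed per gene, counts were rounded, and genes with a total above 10 were fitted with DESeq2 1.42.0 (Wald test, offsets for average transcript length, Benjamini-Hochberg adjustment). A call needs an adjusted p under 0.05 together with a change of over 1 on the log2 scale, up or down. Transcript usage was tested with edgeR 4.0.16, which also gave an alternative gene test, on transcripts with at least 10 counts in 3 libraries. Both tests were also run on simulated counts, and the outcome is not reported here. The p-values measure the spread between these 3 libraries per group. The members and lists were chosen with earlier results of these data known. By rule, values per library are given for members called for expression or usage, and other members by fold change or range; per-library values of further members were added after their values were seen, and pathway genes where called, at most 6 per role, of which 1 is not reported here. Deviations of same-numbered libraries correlated above 0.1 in only 1 of 3 pairs, which does not settle whether they were paired. The labels name no pairing, so the main fits did not use the numbers as pairs.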

Additional observations from a re-analysis of the deposited data

How the results depend on the processing

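Between 7 and 9 members were called higher under each alternative, which were edgeR, TMM scaling, centring on the mean change, other count filters, no length offset, GC and length correction, protein-coding transcripts alone, a test against a log2 fold change of 1, a replicate block and leaving out each library (7 to 8). No member was called lower in any of them. At any fold, 7 higher and 0 lower members passed when tested against a log2 fold change of 1, and otherwise 15 (after centring) to 19 higher. The 2 lower members became 1 with edgeR, TMM scaling or protein-coding transcripts alone, 3 with GC and length correction, 4 after centring, which shifted the median of all genes by -0.11, and 1 to 2 without 1 library. Usage calls of members were 0 to 4 without 1 library. Directions turned in 4 members, of which ERO1A passed in 3 of 15 alternatives and the others in none: CITED2 (0.0345 with edgeR, 0.0346 with TMM scaling, 0.0299 with GC and length correction, 0.0472 for protein-coding transcripts, -0.0808 to 0.0566 without 1 library), RORA (-0.77 for protein-coding transcripts, -0.16 to 1.05 without 1 library), ERO1A (0.00625 with GC and length correction) and RNASE4 (0.72 summed with ANG, -1.44 to 0.57 without 1 library). The cause was not tested. Same-numbered libraries of the groups had deviations correlated at -0.00, 0.13 and 0.09 over 15222 genes, only 1 of them above 0.1. Libraries with different numbers were correlated at -0.12 to 0.05. With 3 libraries per group, these values cannot show whether same-numbered libraries shared more than a number. With a replicate block 7 members were called higher, CA12 no longer among them, 3 were called for usage, without RIOK3, 1 was lower at any fold, and 1839 genes were called higher and 506 lower in place of 2007 and 639. ANG and RNASE4 gave no value under the filter of 10 counts in 3 libraries.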
